A study of Mus musculus with 98 samples.

Results

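The 34 genes described here are the mouse orthologs of genes in the human 22q11.2 deletion region that the count files list, and they were chosen by their place in the genome, not by any measured value. All 34 of 34 were found in each of the single-cell and bulk count tables, which hold 20760 (newborn single cells), 22231 (age series) and 39179 (bulk) genes; the single-cell files list Ess2 under its older name Dgcr14. On the mm10 build they lie between positions 17280351 and 18970309 of chromosome 16, a stretch of 1690 kb with 51 annotated protein-coding genes, with Pi4ka at one end and Hira at the other. Levels were compared over subtypes of thymic stroma and thymic epithelial cells (TEC), over ages, and between thymi with and without 1 functional copy of Tbx1 and Crkl.

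The libraries came in 3 sets, each with tables of its own. The age series holds nonepithelial thymic stroma (NETS, sorted as Ter119-CD45-EpCAM-) of wild-type C57BL/6 mice at E12.5 (embryonic day; 1 library), E13.5 (1 library), E16.5, birth (P0) and 4 weeks (W4; 2 libraries each of these), and the thymi of the 2 earliest ages were pooled. The genotype set holds 6 newborn libraries of Ter119-CD45- stroma that had been fixed for storage, 3 from Tbx1+/-Crkl+/- mice (HET, with a lacZ allele of Tbx1 and a germline null allele of Crkl made with Meox2Cre) and 3 from wild-type littermates (WT). The bulk set holds 84 low-input RNA-seq libraries of wild-type cells sorted on surface proteins, 6 for each of 14 groups: CD31+ endothelium, Ly51+gp38- mural cells, gp38+CD26+ and gp38+CD26- fibroblasts, cortical (cTEC) and medullary (mTEC) epithelium at P0 and at 4 weeks, and mTEChi and mTEClo at 4 weeks. Each group mixes libraries with the label prefixes DFCK and TXCK, whose meaning is not given in the sources used here. HET mice lack 1 functional copy of Tbx1 and of Crkl only, and the other 32 members keep both copies in this model, whereas the human deletion removes 1 copy of a whole block of genes.

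Background on the region helps in reading the values. Tbx1 encodes a T-box transcription factor of the pharyngeal endoderm and mesoderm from which the thymus and its surroundings are built, and Crkl encodes an adapter protein that couples growth factor and integrin receptors to small GTPases. Their neighbours serve unlike tasks: Ranbp1 in nuclear transport, Cdc45 at the replication fork, Dgcr8 in microRNA processing, Hira in histone H3.3 deposition, Cldn5 in the tight junctions of endothelium, and Slc25a1, Mrpl40, Txnrd2 and Prodh in mitochondria. The shared location therefore does not make them 1 pathway.

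Between 1687 and 6587 cells were labelled by the authors in each single-cell library, with 28583048 to 93040640 unique molecular identifiers (UMIs) per age library and 4978011 to 31418527 per newborn library. Of the 84 bulk libraries, 83 held 5785352 to 15852166 reads in genes; gp38+CD26+ at 4 weeks, replicate 2, held 25702 and was left out. Cells of a library were summed over the authors' labels into fibroblasts, endothelium, mural cells and TEC. The summed level of Pecam1, Cdh5, Kdr and Esam was 1924 to 3879 CPM (UMI counts scaled to a library total of 1000000) in age-series endothelium and 11.7 to 23.4 CPM in fibroblasts. The labels came from the same counts, so these values describe the classes and do not check the labels. Replicates were separate samples in the labels, and where nothing says that they were separate animals the p-values measure the spread between these samples only.

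Several members stand back to back on opposite strands, with their annotated starts less than 1000 bases apart, and 5 such pairs were found: Pi4ka and Snap29, Ranbp1 and Trmt2a, Tango2 and Arvcf, Cdc45 and Ufd1, and Mrpl40 and Hira. The stretches between the RefSeq starts (GRCm38.p6, plus strand) of 3 pairs are printed, each upstream of both genes by those starts. They are chr16:18248695-18248882 for Ranbp1 (minus strand) and Trmt2a (plus strand), chr16:18348099-18348181 for Tango2 (minus) and Arvcf (plus), and chr16:18876638-18876749 for Mrpl40 (minus) and Hira (plus). The GENCODE M21 annotation differs: there Trmt2a starts at 18248679 and Mrpl40 at 18876862. By it the stretches of these 2 genes lie inside the gene and not upstream of it. Capitals mark a CCAAT box (CCAAT) or a GC box (GGGCGG) read on either strand.
Ranbp1 and Trmt2a: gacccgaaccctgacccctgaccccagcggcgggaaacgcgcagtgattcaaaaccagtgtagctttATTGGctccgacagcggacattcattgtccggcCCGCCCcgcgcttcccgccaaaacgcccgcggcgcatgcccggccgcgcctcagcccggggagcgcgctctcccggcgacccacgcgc
Tango2 and Arvcf: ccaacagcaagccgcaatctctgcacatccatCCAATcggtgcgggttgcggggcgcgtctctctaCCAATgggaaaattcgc
Mrpl40 and Hira: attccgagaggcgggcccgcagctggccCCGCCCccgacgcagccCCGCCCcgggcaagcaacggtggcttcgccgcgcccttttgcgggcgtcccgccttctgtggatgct
The Ranbp1 and Trmt2a stretch holds 1 match to each box, that of Tango2 and Arvcf 2 CCAAT boxes, and that of Mrpl40 and Hira 2 GC boxes. Windows from 250 bases before to 50 after the start were available for 32 members (not Sept5 and Slc7a4) and 27025 genes in all. A GC box stood in the windows of 26 of 32 members (81.2%) and of 38.2% of all genes, and a CCAAT box in 15 of 32 (46.9%) and 41.1%. Of 10 replication fork genes with a window, 8 held a GC box and 8 a CCAAT box. Of the E2F site only the spellings TTTCGCGC and TTTGGCGC (either strand) were searched, because Cdc45 acts at the replication fork. They stood in 0 of 32 member windows and in 0.929% of all genes, against 5 of 10 replication fork genes with a window. Other spellings of the site were not searched, so the count does not say that member windows lack it. These are matches of letters and not measured binding.

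Tbx1 had the largest fall over development of the members tested. Over all cells of a library it stood at 36.6 CPM (1079 UMIs) at E12.5 and 9.40 CPM (674 UMIs) at E13.5, then at 0.721 and 0.957 at E16.5, 2.18 and 1.15 at P0, and 0.665 and 0.564 at W4 (19 and 22 UMIs). In fibroblasts this was 45.3 CPM at E12.5, 10.2 at E13.5, 0.414 and 0.715 at E16.5, 1.16 and 0.841 at P0, and 0.699 and 0.513 at W4. Both early libraries lay above all 6 later ones, and E12.5 lay well above E13.5. The fitted log2 difference, W4 minus the mean of E12.5 and E13.5, was −4.91 ± 0.28 (SE; edgeR quasi-likelihood F test over the 5 ages, adjusted p = 7.29e-06). Without the E12.5 library it was −3.93 and without the E13.5 library −5.90, with the call kept.

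In endothelium Tbx1 followed another course after E13.5. Its level was 25.1 CPM at E12.5 and 20.6 at E13.5, fell to 0.84 and 2.01 at E16.5, stood at 12.6 and 8.68 at P0, and was 0.31 and 0 at W4. It was called over the 5 ages together (adjusted p = 8.23e-05, edgeR). Both P0 libraries lay above both E16.5 and both W4 libraries, a difference that was not tested by itself. The P0 UMIs came mainly from the venous and lymphatic label EnVL, with 33 and 21 Tbx1 UMIs in 14 of 95 and 5 of 83 cells. The other newborn sets did not show this P0 level. WT endothelium of the genotype set held 5 Tbx1 UMIs (1.75 CPM pooled), and sorted CD31+ cells at P0 held no Tbx1 read. Only 1 Tbx1 UMI was counted in W4 endothelium against 253 at the early ages, a ratio of pooled levels of 131.5 (exact 95% interval 23.4 to 5213, counting error only). In mural cells the values were 34.3, 9.46, 1.1 and 0.825, 4.39 and 0.815, and 0.892 and 1.62 CPM in the same order of ages.

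Crkl stayed level in fibroblasts over the same libraries. Its fibroblast values were 27 CPM at E12.5, 21 at E13.5, 18.2 and 19.3 at E16.5, 20 and 19.1 at P0, and 21.4 and 20.7 at W4, with the E12.5 library the highest. The log2 difference was 0.08 ± 0.07 (adjusted p = 0.259, edgeR) in fibroblasts and 0.26 ± 0.23 (adjusted p = 0.655) in endothelium. Leaving out each library in turn moved the fibroblast difference between −0.01 and 0.17. Fitted differences use TMM-scaled library sizes (trimmed mean of M values) and not the plain CPM ratio: over the members they were higher than that ratio by a median of 0.28 in fibroblasts and lower by 0.08 in endothelium (−0.08), and of the called members 1 changed sign between them in each class, Slc7a4 (fitted 0.03) and Dgcr8 (fitted 0.00).

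**Figure D1:**
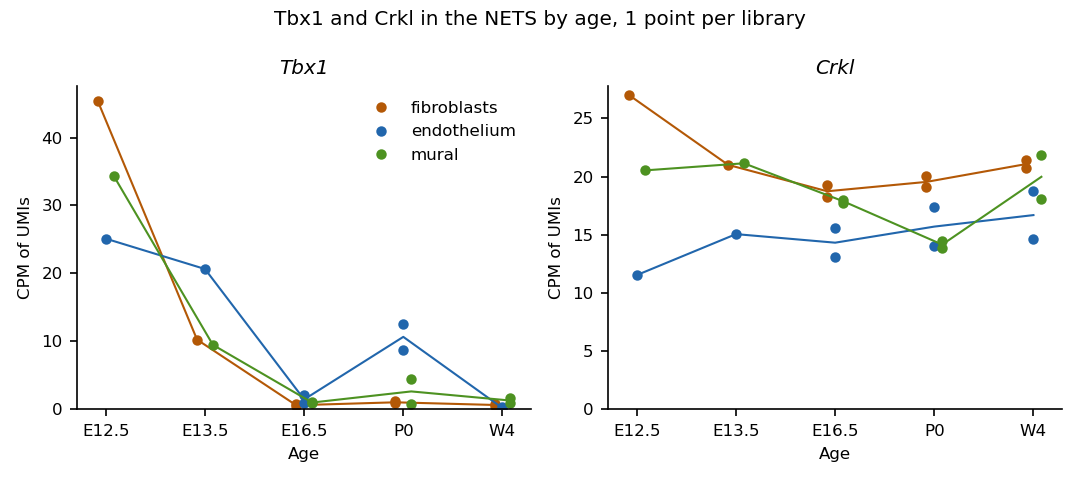
Tbx1 (left) and Crkl (right) in CPM of UMIs (y axis, linear) by age (x axis) in fibroblasts, endothelium and mural cells; each point is 1 library and lines join the means of an age. Tbx1 falls from 45.3 CPM in E12.5 fibroblasts to 0.699 and 0.513 at W4, with 12.6 and 8.68 in P0 endothelium, while Crkl in fibroblasts stays between 18.2 and 27.

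Most members moved with age in fibroblasts, as did most genes. Of 34 members, all of which passed the low-count filter, 25 were called over the 5 ages, 13 higher and 12 lower at W4 than at the early ages, against 80.3% of all genes tested, so the share of members was close to the background. The median log2 difference was 0.03 over the members and −0.02 over all genes. In endothelium 11 of 27 members tested were called, 2 higher and 9 lower, against a background of 60.8%, with medians of −0.07 and 0.02. The mix of subtypes moved with age too. Within cells labelled CapFb1a alone 15 of 28 members tested were called (background 68.9%), within CapFb2b alone 15 of 29 (64%) and within capillary endothelium (EnC) alone 9 of 26 (56.3%).

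Markers of other cells moved with age in the same sums. In endothelium the 4 globin genes went from 0.412 CPM at E12.5 and 12 at E13.5 to 15416 and 30259 at W4, the fibroblast markers Pdgfra, Col1a1, Dcn and Lum from 14.8 and 133.7 to 587 and 740, and the mural markers Kcnj8, Rgs5, Myh11 and Acta2 from 14.4 and 36.5 to 354 and 1121. In fibroblasts the globin genes went from 0.746 and 244 to 1667 and 2670 CPM, and the fibroblast markers themselves from 1045 and 3225 to 21174 and 22111. Their part in the age results below was not tested.

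Ranbp1, which helps to release cargo from exported Ran complexes, fell in both classes. In fibroblasts it stood at 391 and 400 CPM at E12.5 and E13.5, at 232 and 240 at E16.5, at 218 and 204 at P0, and at 140 and 147 at W4, without overlap between the early, E16.5 and W4 libraries. The log2 difference was −1.20 ± 0.07 (adjusted p = 4.97e-05, edgeR) and in endothelium, where it went from 534 and 539 to 148.1 and 146.7 CPM, −1.94 ± 0.12 (adjusted p = 9.79e-06). Of Ran, Rcc1, Rangap1, Ranbp2, Kpnb1 and Xpo1, the other genes of the Ran cycle, 5 of 6 fell in fibroblasts (median −1.08; 80.3% of all genes were called there) and 5 of 6 in endothelium (median −1.58; 60.8%). These backgrounds, here and for the lists below, count calls in either direction. The share of all genes called only lower, or only higher, is not given. Ran itself, the GTPase, fell by 1.38 ± 0.05 in fibroblasts and Rcc1, its exchange factor, by 2.77 ± 0.32 in endothelium (adjusted p = 0.000436, edgeR).

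Cdc45, which opens the replication fork with the MCM helicase, fell by 0.45 ± 0.21 on the log2 scale in fibroblasts (adjusted p = 0.0256, edgeR) and by 2.94 ± 0.59 in endothelium (adjusted p = 0.00448). The fibroblast call ended with DESeq2 (adjusted p = 0.103) and without any 1 of the E16.5 or W4 libraries (0.0637 to 0.0997), and the difference was −0.89 without the E12.5 library and −0.02 without the E13.5 library. Its endothelial levels were 15.6 and 15.7 CPM at the early ages, 20 and 9.42 at E16.5, 5.11 and 1.67 at P0, and 1.55 and 2.78 at W4, so that all 4 libraries from birth on lay below the 4 embryonic ones. Of 14 other replication fork genes, 14 fell in fibroblasts (median log2 −2.80) and 13 of 14 in endothelium (median −2.77; backgrounds 80.3% and 60.8%), among them Mcm5 in fibroblasts (−3.93 ± 0.11, adjusted p = 3.3e-06) and Mcm10 in endothelium (−5.87 ± 0.92, adjusted p = 0.00317). The cycling markers Mki67, Top2a and Birc5 summed to 506 CPM in E12.5 and 308 in E13.5 endothelium and to 14.3 and 28.6 at W4, and in fibroblasts to 64.7 and 92.9 at the early ages and 8.45 and 10.6 at W4. Their part in the results of Cdc45, Ranbp1 and both lists was not tested.

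Gnb1l and Prodh were lower at W4 in fibroblasts too. Gnb1l, a WD-repeat protein, went from 5.84 and 3.54 to 1.75 and 1.47 CPM (log2 −1.24 ± 0.21, adjusted p = 0.0093, edgeR). Prodh, a mitochondrial proline oxidase, went from 8.14 and 3.85 to 2.2 and 1.74 CPM (−1.26 ± 0.19, adjusted p = 0.00278), with most of the fall before E16.5. Without the E12.5 library Prodh was no longer called (−0.81, adjusted p = 0.0506), and within CapFb1a alone neither Prodh (−0.73, adjusted p = 0.235) nor Gnb1l (−1.31, adjusted p = 0.251) was.

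Dgcr6, Dgcr8, Klhl22 and Mrpl40 also fell in fibroblasts, by smaller amounts. Dgcr6 went from 91 and 74.2 to 44.5 and 41.9 CPM (log2 −0.67 ± 0.05, adjusted p = 0.000271, edgeR), and Dgcr8, the partner of the ribonuclease Drosha, from 25.6 and 24.7 to 14.7 and 14.2 CPM (−0.54 ± 0.07, adjusted p = 0.00168). Klhl22, a substrate adapter of a ubiquitin ligase, fell by 0.46 ± 0.07 (adjusted p = 0.00517), and Mrpl40, of the mitochondrial ribosome, by 0.29 ± 0.06 (adjusted p = 0.00327). The level of Dgcr8 reached its later value by E16.5 (14.4 and 14.3 CPM), whereas Klhl22 and Mrpl40 were lower at W4 than at P0 in every library. Within CapFb1a alone or CapFb2b alone Dgcr8 (adjusted p = 0.174 and 0.0915), Klhl22 (0.0675 and 0.186) and Mrpl40 (0.0505 and 0.102) were not called. Of 6 other microRNA processing genes, 4 fell and 2 rose in fibroblasts and 2 fell in endothelium (backgrounds 80.3% and 60.8%), led by Tarbp2, a Dicer partner (−1.25 ± 0.10, adjusted p = 0.000265, edgeR, in fibroblasts).

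In endothelium these 4 genes were called too. Klhl22 fell by 1.10 ± 0.19 (adjusted p = 0.00853, edgeR) and Mrpl40 by 0.75 ± 0.13 (adjusted p = 0.00265). Dgcr8 had no net difference (0.00 ± 0.21, adjusted p = 0.0418), with 15.2 and 14.8 CPM early, 8.93 and 8.37 at E16.5 and 16.8 and 14.9 at W4, and its call ended with DESeq2 (adjusted p = 0.385) and without either E16.5 library, either W4 library or the second P0 library (0.0601 to 0.093). Dgcr6 (−0.47 ± 0.18, adjusted p = 0.0489) and Prodh (−1.10 ± 0.31, adjusted p = 0.0164) rested on single libraries: without the first W4 library the adjusted p was 0.182 for Dgcr6, at a difference of −0.19, and 0.0745 for Prodh, and without the second W4 library it was 0.082 for Prodh. The Dgcr6 difference was −0.77 without the second W4 library and −0.27 without the E13.5 library. Leaving out any 1 of the E16.5 or P0 libraries also ended the Dgcr6 call (adjusted p 0.0624 to 0.0979). With DESeq2 the calls of Klhl22 (adjusted p = 0.0546), Dgcr6 (0.237) and Prodh (0.115) ended.

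Tango2, a protein of lipid handling and secretion, and Pi4ka rose in fibroblasts. Tango2 stood at 12.6 and 14 CPM at the early ages, 23.2 and 23.2 at E16.5, 21.2 and 21 at P0, and 31 and 32.2 at W4 (log2 1.52 ± 0.07, adjusted p = 3.17e-05, edgeR). Pi4ka, the kinase that makes phosphatidylinositol 4-phosphate at the plasma membrane, was flat until birth at 11.7 to 15 CPM and stood at 26.1 and 25.8 at W4 (1.15 ± 0.08, adjusted p = 6.7e-05). The W4 libraries lay above all others for both genes.

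Arvcf, a catenin of adherens junctions, had fibroblast levels of 15.2 and 6.75 CPM early, 7.4 to 9.76 at E16.5 and P0, and 21.2 and 18.4 at W4 (1.22 ± 0.14, adjusted p = 0.000418, edgeR). The call was kept without the E13.5 library (0.72) and without the E12.5 library (1.72). Scarf2, a scavenger receptor family member, stood at 90.5 and 63 CPM early, 83.7 and 80.2 at E16.5, 135.9 and 134.7 at P0, and 124.4 and 119.8 at W4 (0.96 ± 0.05, adjusted p = 1.48e-05). In endothelium Scarf2 fell instead, from 22.6 and 22.9 to 6.21 and 10.8 CPM (−1.51 ± 0.31, adjusted p = 0.00603). Within EnC alone Scarf2 was not called (−1.04, adjusted p = 0.0507).

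Med15, a Mediator subunit, rose in both classes. Its endothelial level was 23.5 to 27.6 CPM through E16.5, then 36.8 and 44.7 at P0 and 49.7 and 48.3 at W4 (0.81 ± 0.15, adjusted p = 0.00368, edgeR), and in fibroblasts the difference was 0.65 ± 0.09 (adjusted p = 0.00434). Zdhhc8, a palmitoyltransferase (0.82 ± 0.08, adjusted p = 0.000722), Thap7 (0.50 ± 0.07, adjusted p = 0.0047) and Txnrd2, the mitochondrial thioredoxin reductase (0.49 ± 0.09, adjusted p = 0.00213), were higher at W4 in fibroblasts. The CPM of Txnrd2 was 13.1 at E12.5 and 8.67 at E13.5 against 12.49 and 12.38 at W4, so the early libraries stood on either side. Without the E13.5 library the Txnrd2 difference was 0.27, and it was 0.00 within CapFb1a alone and 0.05 within CapFb2b alone, where it was not called (adjusted p = 0.356); Thap7 was not called within CapFb1a (adjusted p = 0.13).

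Slc25a1, the mitochondrial citrate carrier, dipped and recovered. In fibroblasts it stood at 36.1 and 27.5 CPM early, 14 to 15.5 at E16.5 and P0, and 25.6 and 25.2 at W4, so it was called over the ages (adjusted p = 0.000158, edgeR) with a difference of −0.05 ± 0.08 between the ends. Sept5, a septin of vesicle release, had the same shape, with 5.5 and 3.74 CPM early, 1.86 to 3.26 between, and 5.49 and 5.54 at W4 (0.55 ± 0.27, adjusted p = 0.019). Its call ended without the first E16.5 library (adjusted p = 0.0549) or either W4 library (0.0811 and 0.0998), and its difference was 0.35 without the E13.5 library. Reads in the shared exons of Sept5 and Gp1bb, 1902 bp on the same strand, cannot be divided between them.

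Some called members were near the detection limit in fibroblasts. Serpind1, the thrombin inhibitor heparin cofactor II, had 1 UMI at the early ages and 50 at W4, a ratio of pooled levels of 50.8 (exact 95% interval 8.7 to 2045, counting error only), and lost its call without the second W4 library (adjusted p = 0.0699). P2rx6, an ATP-gated channel subunit, ranged from 0.046 to 1.03 CPM and was not called without the first E16.5 library (adjusted p = 0.0587) or the second W4 library (adjusted p = 0.0863, difference 0.73). Cldn5 was 0.407 CPM at E12.5 and 1.57 to 3.32 at later ages (adjusted p = 0.0252), and without the E12.5 library its difference was 0.80 (adjusted p = 0.333).

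In endothelium, whose tight junctions it seals, Cldn5 rose. Its levels were 430 and 483 CPM early, 503 and 464 at E16.5, 868 and 1279.5 at P0, and 737 and 949 at W4 (log2 0.81 ± 0.20, adjusted p = 0.0035, edgeR), and all 4 libraries from birth on lay above the 4 embryonic ones. Of 7 other junction genes 5 rose and 1 fell, where 60.8% of all genes were called. Jam2, a junctional adhesion molecule, rose by 3.26 ± 0.14 and Ocln, occludin, fell by 4.51 ± 1.11 (adjusted p = 0.0121, edgeR). The partners of Crkl went both ways, with 7 of 11 higher and 4 lower in fibroblasts and 5 higher and 2 lower in endothelium (backgrounds 80.3% and 60.8%); of the platelet receptor list 2 genes could be tested, in fibroblasts, and 1 was lower.

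**Figure D2:**
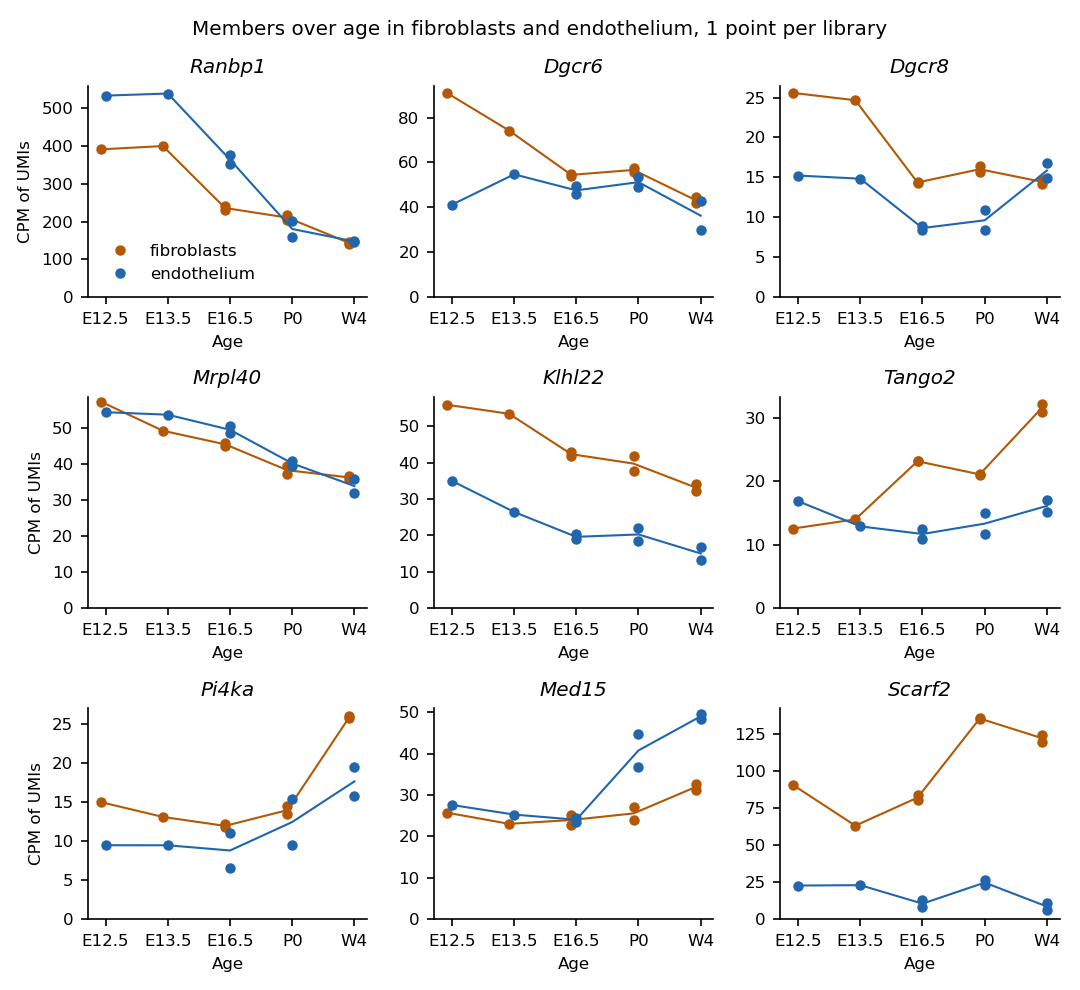
Levels of 9 members in CPM of UMIs (y axis, linear) by age (x axis) in fibroblasts and endothelium; each point is 1 library and lines join the means of an age. Ranbp1 falls in both classes (fibroblasts 391 and 400 to 140 and 147), Tango2 and Pi4ka climb in fibroblasts, Med15 climbs after E16.5 in endothelium, and Scarf2 ends higher in fibroblasts and lower in endothelium.

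The pairs that stand back to back are set side by side here. In fibroblasts the log2 difference was −1.20 for Ranbp1 and 0.00 ± 0.07 for Trmt2a, a tRNA methyltransferase (adjusted p = 0.0786, edgeR), and 1.15 for Pi4ka and 0.09 ± 0.07 for Snap29, a vesicle fusion protein (adjusted p = 0.182). Mrpl40 fell by 0.29 while Hira, the H3.3 chaperone, was at 0.00 ± 0.11 (adjusted p = 0.581), and Cdc45 fell by 0.45 while Ufd1, a cofactor of the p97 ATPase, was at −0.05 ± 0.06 (adjusted p = 0.101). Tango2 and Arvcf, at 1.52 and 1.22, were both called higher. Of 6 genes that encode H3.3 or act with Hira on it, 4 fell and 1 rose in fibroblasts, a share near the background of 80.3%. Among those that fell was Asf1a, another H3 chaperone (−1.16 ± 0.06, adjusted p = 3.49e-05, edgeR).

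Over the 19 NETS subtypes of the authors the members differed in how widely they were spread. Capsular and medullary fibroblasts carry the labels CapFb and MedFb. Values are means over the 6 to 8 libraries with at least 5 cells of a label, with the SD over libraries of different ages, and are given as a description because the labels came from the same counts. Of 34 members, 19 had every subtype mean within 3-fold, Crkl among them with 13.1 CPM in EnA (arterial endothelium) to 23.1 ± 3.1 in Pr (proliferating cells) and 23.0 in CapFb4. Tbx1 had its highest mean in EnA at 13.9 ± 20.3 CPM (8 libraries, 0 to 62.5), next to 13.2 ± 27 in CapFb4, an order within the SDs. These means weigh all ages alike and do not show where Tbx1 was highest at E12.5. At E12.5 EnA held 1 Tbx1 UMI over 10 cells, CapFb4 5 over 6 and NC 3 over 259. CapFb1a then held 247 over 442 cells, CapFb2b 188 over 238, Pr 257 over 373 and EnC 58 over 91. At E13.5 EnA held 89 over 140 cells. The highest mean fell in neural crest cells (NC) for 7 members, in EnA, mesothelium (Mes) and Pr for 6 each, in CapFb4 for 4, in CapFb1a and vascular smooth muscle (VSM) for 2 each and in CapFb1b for 1. NC held 650 cells over all libraries, and Serpind1 at 18.2 ± 43.4 CPM there rested on 4 UMIs. Each library weighed the same in these means, and in the second W4 library NC held 7 cells and 24222 UMIs. Apart from Serpind1, the members highest in NC stood there at 1.02 to 1.48 times the mean of the next label.

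The other members can be grouped by the cells where they were highest. Cldn5 was endothelial, with 1046 ± 334 CPM in EnA, 738 ± 323 in EnC and 548 ± 339 in EnVL, which overlap within their SDs, and at most 51.5 CPM elsewhere (NC, 25 UMIs). Cdc45 stood at 39.6 ± 5.6 CPM in Pr and next at 10.2 ± 8.7 in EnC, and Ranbp1 at 453 ± 120 in Pr and 324 in EnC. Pr is defined by cell cycle genes.

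Arvcf was highest in VSM at 75.0 ± 42.4 CPM, then in NC (55.4 ± 24.8) and pericytes (Pc, 35.9 ± 17.8), an order within the SDs. Scarf2 was highest in fibroblast labels, with 124.1 ± 44 CPM in CapFb1b and 123.8 in MedFb2b, stood at 82.3 ± 27.8 in Pc, 79.5 ± 29.4 in Mes, 62.3 ± 38.5 in NC and 59.7 ± 13.1 in VSM, which overlap the lower fibroblast labels (61.4 in CapFb4), and was at 15.1 to 17.4 in the 3 endothelial labels. Slc7a4, a cationic amino acid transporter family member, was at 21.7 ± 11.3 CPM in Mes and at most 1.55 in any other label, and P2rx6 (3.99 ± 4.59) and Aifm3 (2.45 ± 4.63) were also highest in Mes, on 41 and 7 UMIs. Prodh was highest in EnA (17.9 ± 9.9 CPM).

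**Figure D3:**
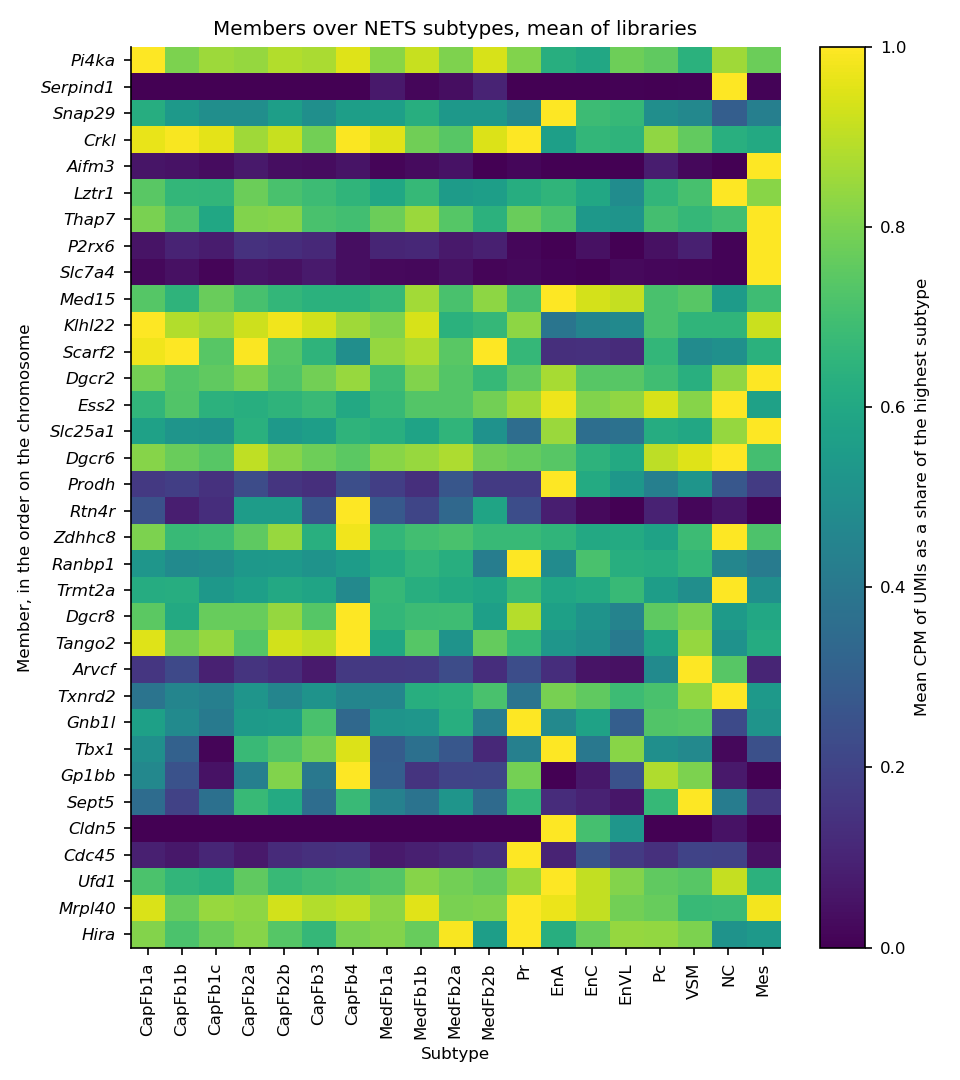
Each of the 34 members (rows, in the order of the genes on the chromosome) over the 19 NETS subtypes (columns) of the age series, coloured by mean CPM of UMIs as a share of the highest subtype of that row (colour scale 0 to 1, no unit). Rows such as Crkl, Dgcr2 and Ufd1 stay bright across subtypes, while Cldn5 is bright only in EnA, EnC and EnVL, and Aifm3, P2rx6 and Slc7a4 only in Mes.

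In newborn WT libraries, where TEC were kept, the same members could be set beside epithelium (mean ± SD, n = 3 unless given). P2rx6 stood at 15.6 ± 9.3 CPM in mature cortical TEC (McTEC) against 5.26 ± 0.85 in perinatal cortical TEC (PcTEC), and Slc7a4 at 4.28 ± 1.5 in PcTEC; both had higher means in labels where they rested on 1 or 2 UMIs. Tango2 was highest among TEC in mature medullary cells (MmTEC, 68.0 ± 12.7 CPM), and Ranbp1 in proliferating TEC (PrTEC, 293 ± 25). Arvcf again led in VSM (201 ± 12) and Pc (115.4 ± 4.2). Cldn5 was 910 to 1111 CPM in the 3 endothelial labels and 9.91 in PcTEC.

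In the sorted bulk populations the same genes were measured in cells chosen by surface protein, in CPM of gene reads. In these samples fewer cells of a type and less RNA per cell cannot be told apart, and libraries made from little input list many low genes at 0. Whether populations of 1 age were sorted from the same mice is not given in the sources used here, and the tests between populations treat all libraries as independent. Per kilobase of exon, Ranbp1 led the members in 12 of 14 groups with medians of 121.98 to 227 RPKM (reads per kilobase of exon, scaled to library size), and Cldn5 led in CD31+ cells with 1691 at P0 and 884 at 4 weeks. Of 34 members, 22 had a median above 0 in all 14 groups.

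Cldn5 marked CD31+ cells. Its CPM was 1234, 2394 and 2954 (lowest, median and highest of 6) at P0 and 1067, 1252 and 1410 at 4 weeks, against medians of at most 9.31 in the other 12 groups, with no overlap. The fall of 0.74 ± 0.19 on the log2 scale from P0 to 4 weeks passed the threshold (adjusted p = 0.0385, edgeR) and ended without the low-count filter (adjusted p = 0.0522) or with the label prefix as a term (adjusted p = 0.052). In the same libraries the mural markers went from 25.8, 62.3 and 157.9 CPM at P0 to 628, 1183 and 1815 at 4 weeks, the globin genes from 7.57, 28.3 and 342 to 273, 2644 and 7015, and the cycling markers from 119.02, 184.6 and 249 to 7.75, 17.5 and 67.5; their part in the result was not tested. In the single-cell age series the endothelial values at W4 (737 and 949 CPM) overlapped those at P0.

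Against the other 3 NETS populations CD31+ cells differed in 10 of 33 members at P0 and 10 of 34 at 4 weeks, against backgrounds of 33.3% and 27.5%. At both ages Arvcf and Scarf2 were lower in CD31+ cells. Arvcf was 118.5, 157.6 and 259 CPM in Ly51+gp38- cells at P0 and 99.6, 146.3 and 186.8 at 4 weeks (lowest, median, highest), against at most 4.08 at P0 in CD31+ cells and 0 to 18.5 at 4 weeks. The contrast was −5.07 ± 0.93 at P0 (adjusted p = 5.27e-05, edgeR) and −4.14 ± 1.03 at 4 weeks (adjusted p = 0.00231). The Ly51+gp38- median of Arvcf was the highest of the sorted populations at both ages. Crkl did not pass at either age (0.16 ± 0.19, adjusted p = 0.631, and 0.32 ± 0.48, adjusted p = 0.776).

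Scarf2 in gp38+CD26- fibroblasts was 3.74, 18.3 and 25.2 CPM at P0 and 22.7, 26.4 and 36.5 at 4 weeks. It was lower in CD31+ cells by 3.84 ± 1.002 on the log2 scale at P0 (adjusted p = 0.00293, edgeR) and 4.61 ± 1.07 at 4 weeks (adjusted p = 0.00113). Sept5 had no read in any CD31+ library at 4 weeks, while the other NETS held 4607, a level at least 558-fold higher over the group (3 counts over the group, counting error only). Klhl22 (−1.44 ± 0.36, adjusted p = 0.00183) and Dgcr6 (−0.86 ± 0.26, adjusted p = 0.0107) were lower in CD31+ cells at P0. At 4 weeks Trmt2a was higher (0.81 ± 0.21, adjusted p = 0.00287) and Tango2 lower (−0.94 ± 0.26, adjusted p = 0.00637).

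The remaining calls were small or rested on few reads. Ufd1 was higher in CD31+ cells at P0 (0.38 ± 0.14, adjusted p = 0.0348, edgeR), and at 4 weeks Ranbp1 (−0.31 ± 0.12, adjusted p = 0.0439) and Thap7 (−0.50 ± 0.19, adjusted p = 0.0465) were lower. Sept5 was lower at P0 as well (−3.43 ± 1.04, adjusted p = 0.0103). P2rx6 had no read in CD31+ cells and was lower at least 25.8-fold at P0 and 62.6-fold at 4 weeks (adjusted p = 0.0144 and 0.00479). Serpind1 was called higher at P0 (adjusted p = 0.00679) on 42 reads against 34, with a median of 0 CPM in every NETS population, and lower at 4 weeks (adjusted p = 0.019), with no read against 331, at least 40.1-fold.

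TEC differed from NETS in 7 of 33 members at P0 and in 11 of 34 at 4 weeks, both shares below the backgrounds of 46.1% and 45.3%. The transporter gene Slc7a4 and the channel gene P2rx6 were higher in epithelium. Slc7a4 was 13.2, 16.7 and 49.7 CPM in P0 cTEC and 35.1, 53.5 and 68.6 in P0 mTEC, with medians of 0 to 1.94 in the 4 P0 NETS populations (adjusted p = 6.09e-08, edgeR). At 4 weeks it was 9.81, 27.5 and 60.2 CPM in cTEC and 21.8, 26.6 and 133.96 in mTEC, overlapping the sorted gp38+CD26+ population with a median of 22.2 (adjusted p = 3.16e-06). The mesothelial markers Upk3b, Msln and Krt19 summed to 438, 3817 and 5181 CPM in that population at 4 weeks (n = 5) and to 0, 53.4 and 325 at P0, and their part in the value was not tested. P2rx6 was 9.9, 17.5 and 25.5 CPM in P0 cTEC and 0.609, 2.66 and 5.03 in P0 mTEC without overlap, and called over NETS at both ages (adjusted p = 0.000722 and 0.00576). Aifm3 was also called at P0 (adjusted p = 3.02e-05), with 331 reads in TEC and none in NETS, at least 233.9-fold higher over the group.

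Scarf2 was lower in TEC at both ages, by 3.05 ± 0.69 on the log2 scale at P0 (adjusted p = 0.000409, edgeR) and 2.74 ± 0.70 at 4 weeks (adjusted p = 0.00154). Tango2 was higher in TEC, by 0.83 ± 0.23 at P0 (adjusted p = 0.00375) and 1.04 ± 0.18 at 4 weeks (adjusted p = 1.73e-05), and Dgcr2, an adhesion receptor, lower by 0.53 ± 0.15 (adjusted p = 0.00288) and 0.74 ± 0.22 (adjusted p = 0.00548). Slc25a1 passed at P0 (0.83 ± 0.34, adjusted p = 0.0432), and its call ended without the low-count filter (adjusted p = 0.0556). Crkl did not pass at P0 (−0.20 ± 0.15, adjusted p = 0.291) or at 4 weeks (−0.40 ± 0.37, adjusted p = 0.419). In newborn single cells, by contrast, Scarf2 in PcTEC (61.8 CPM) was near its fibroblast level of 69.6 to 78.1 CPM, while the 4 fibroblast markers summed to 376 to 599 CPM in WT TEC; their part in the value was not tested.

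At 4 weeks Prodh was higher in TEC by 1.26 ± 0.39 on the log2 scale (adjusted p = 0.00845, edgeR), with 22.8, 42.4 and 60.1 CPM in mTEC. Lztr1, an adapter for RAS degradation (−0.85 ± 0.22, adjusted p = 0.00179), and Zdhhc8 (−1.76 ± 0.73, adjusted p = 0.0477) were lower, and Ranbp1 was higher by 0.24 ± 0.08 (adjusted p = 0.0196), a call that ended without the low-count filter (0.0593) or with the shallow library kept (0.0818). Zdhhc8 was 6.68, 20.2 and 25.1 CPM in gp38+CD26+ fibroblasts (n = 5) against 0.0749, 0.792 and 4.86 in mTEC, and its call ended when the shallow library was kept (adjusted p = 0.0527). The median log2 difference of all genes between TEC and NETS was 0.21 at P0 and 0.31 at 4 weeks, against 0.08 and −0.08 over the members.

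Tbx1 was low in every sorted population and highest in medullary epithelium. Its CPM was 0.703, 4.2 and 14.8 in P0 mTEC, 0, 1.63 and 14.4 in 4-week mTEC and 0.847, 2.22 and 5.88 in mTEChi, with medians of 0 to 1.001 in the other groups. It was called over NETS at 4 weeks (adjusted p = 0.00608, edgeR) and lower in CD31+ cells at P0 (adjusted p = 0.0361), where no CD31+ library held a read and the other NETS held 228, a level at least 24.9-fold higher. Both calls ended with DESeq2 (adjusted p = 0.095 and 0.0684). At P0 it was not called over NETS, with no read in any cTEC library, and at 4 weeks not in CD31+ cells, with no read there. Nor did it pass between ages in mTEC (−0.64 ± 1.37, adjusted p = 0.89) or between mTEChi and mTEClo (1.75 ± 1.52, adjusted p = 0.525). Rtn4r, the Nogo receptor, was likewise called over NETS at 4 weeks (adjusted p = 0.00113; DESeq2 0.0534), on a median of 1.06 CPM in mTEC.

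Age changed few members in the sorted populations outside cTEC. From P0 to 4 weeks 2 of 23 were called in CD31+ cells (background 5.09%) and 1 of 27 in Ly51+gp38- cells (11.9%). The counts were 2 of 29 in gp38+CD26+ (13.2%), 5 of 30 in gp38+CD26- (24.3%) and 0 of 31 in mTEC (5.99%). In mTEC 3 members and 2868 of 15883 genes had an unadjusted p under 0.05 (edgeR), and DESeq2 called 0 members. In cTEC 9 of 28 were called, 7 higher and 2 lower, against 22.3%. Whether the age change differed between TEC and NETS was tested for all 34 members and passed for 0 (background 6.82%, edgeR). An unadjusted p under 0.05 was held by 1 member and by 3200 of 19415 genes (edgeR), and DESeq2 called 0 members.

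In cTEC Ranbp1 and Cdc45 rose. Ranbp1 went from 159, 203 and 292 CPM at P0 to 317, 363 and 439 at 4 weeks without overlap (log2 0.82 ± 0.16, adjusted p = 0.0019, edgeR), and Cdc45 from 4.84, 7.17 and 11.201 to 8.95, 15.5 and 19.7 (1.07 ± 0.33, adjusted p = 0.0309). Of the 14 other replication fork genes 8 rose and 0 fell, and of 6 Ran cycle genes 3 rose (background 22.3%, in either direction). Among those were Mcm5 (1.47 ± 0.23, adjusted p = 0.000508) and Kpnb1 (0.63 ± 0.16, adjusted p = 0.0106). The 3 cycling markers summed to 27.7, 57.7 and 110.9 CPM in P0 cTEC and 102.4, 237 and 304 at 4 weeks, and the thymocyte markers Ptprc, Cd3e, Lck, Rag1 and Cd8a to 24.7, 29.99 and 45.3 and then 382, 1227 and 1735, without overlap. Their part in the result was not tested.

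Crkl was among the members that fell in cTEC, from 41.6, 69.9 and 92.1 CPM to 20.7, 38.8 and 55.7 (log2 −0.74 ± 0.24, adjusted p = 0.0364, edgeR), with 1 P0 library inside the 4-week range and the call lost without the low-count filter (adjusted p = 0.0527). Its difference had the same sign in the other 5 populations (−0.83 to −0.44) without passing. Dgcr8 fell too (−0.81 ± 0.25, adjusted p = 0.0318). Scarf2 (2.06 ± 0.63, adjusted p = 0.0304), Gnb1l (1.42 ± 0.39, adjusted p = 0.0178), Thap7 (0.76 ± 0.17, adjusted p = 0.00461), Tango2 (0.68 ± 0.18, adjusted p = 0.016) and Dgcr6 (0.50 ± 0.16, adjusted p = 0.0337) rose. The fibroblast markers Pdgfra, Col1a1, Dcn and Lum moved with Scarf2 in these libraries, from 12.6, 56.8 and 124.8 CPM in sum at P0 to 340, 645 and 1791 at 4 weeks, and the 3 mesothelial markers went from at most 4.84 to 16, 326 and 2314; their part in the result was not tested.

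In the mesenchymal populations the called members were few. Sept5 rose in gp38+CD26+ fibroblasts from 0, 4.7 and 4.88 CPM to 13.6, 34.1 and 37.8 (n = 5; log2 3.297 ± 0.77, adjusted p = 0.0137, edgeR), without overlap, and 3.21 to 3.52 with each 4-week library left out in turn. In these cells the mesothelial markers, given with Slc7a4, and the 4 globin genes (0.187 to 1.84 CPM in sum at P0, 1060 to 2848 at 4 weeks) moved too, and their part in the result was not tested. Serpind1 in gp38+CD26- fibroblasts had no read at P0 and 306 at 4 weeks (1.48, 3.09 and 8.62 CPM), a level at least 96.8-fold higher over the group. Dgcr2 fell by 0.72 ± 0.21 on the log2 scale in Ly51+gp38- cells (adjusted p = 0.036; 0.0555 without the low-count filter) and by 0.64 ± 0.15 in gp38+CD26- cells (adjusted p = 0.00532).

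Markers of other cells moved with age in these populations too. In Ly51+gp38- cells the thymocyte markers went from 0 to 29.5 CPM at P0 to 74.6 to 294 at 4 weeks, and the cycling markers from 115.2 to 216.4 to 9.91 to 52.8. In gp38+CD26- cells the globin genes went from at most 0.61 CPM to 27.4 to 3205, and the cycling markers from 35.9 to 152.7 to 8.38 to 43.1. Their part in the calls of these populations was not tested.

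Others were Klhl22 (−0.88 ± 0.24, adjusted p = 0.0159), Slc25a1 (0.78 ± 0.26, adjusted p = 0.0413) and Ranbp1 (0.40 ± 0.14, adjusted p = 0.0456) in gp38+CD26- cells, Ufd1 in gp38+CD26+ cells (−0.63 ± 0.15, adjusted p = 0.0156; 0.0543 with the shallow library) and Trmt2a in CD31+ cells (1.04 ± 0.26, adjusted p = 0.0351; 0.052 without the low-count filter). The calls of Slc25a1 (adjusted p = 0.0561) and Ranbp1 (adjusted p = 0.064) also ended without that filter. In gp38+CD26+ cells the Ranbp1 difference was −0.48 ± 0.22 (adjusted p = 0.186) and did not pass, and in the single-cell fibroblasts Ranbp1 was lower at W4 than at P0.

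Within medullary epithelium at 4 weeks 3 of 30 members differed between mTEChi and mTEClo (background 16.4%). Aifm3, an apoptosis-inducing factor family member, was 2.31, 9.43 and 15 CPM in mTEChi and had no read in mTEClo, a level at least 183.9-fold higher over the group (adjusted p = 0.000636, edgeR). Arvcf (−1.74 ± 0.49, adjusted p = 0.0276) and Dgcr6 (−0.92 ± 0.21, adjusted p = 0.00857) were lower in mTEChi, and Crkl did not pass (0.01 ± 0.42, adjusted p = 0.988). The mural markers summed to 1723 to 2200 CPM in mTEChi and 2662 to 4511 in mTEClo and the epithelial markers to 2835 to 3337 and 4228 to 5093, both without overlap, and their part in the result was not tested. Prodh, at 15.5, 48.2 and 65.7 CPM in mTEChi and 7.52, 28.1 and 42.4 in mTEClo, overlapped between the 2. Tango2, at 86.6, 113.2 and 136.9 CPM against 2.45, 52.7 and 77.1, did not overlap and did not pass (1.40 ± 0.52, adjusted p = 0.0932).

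**Figure D4:**
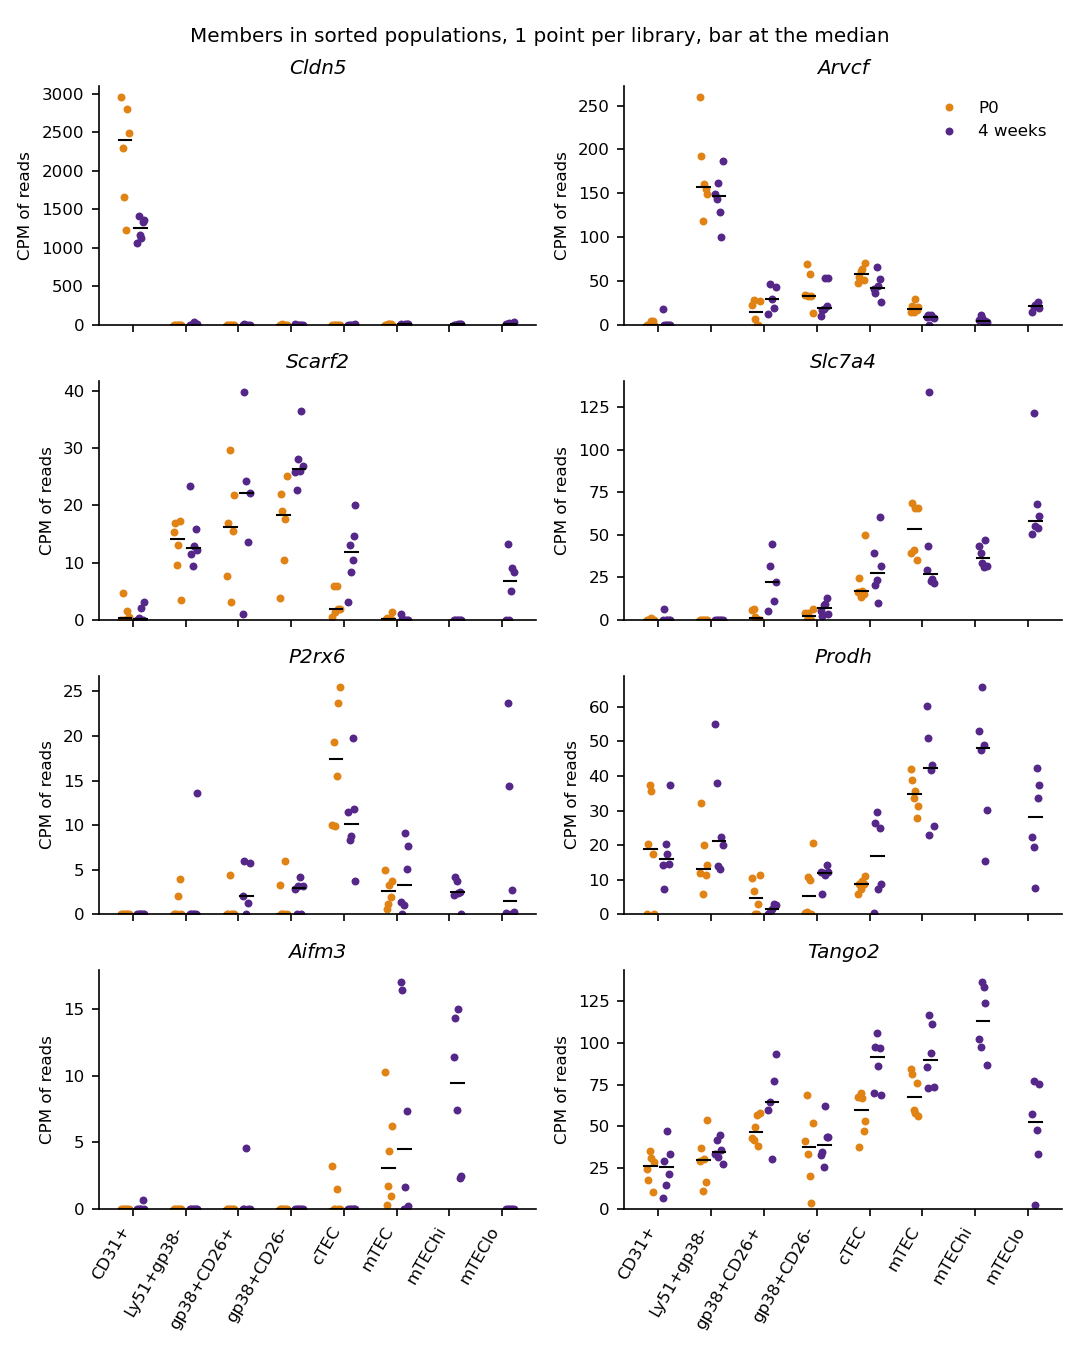
Levels of 8 members in CPM of gene reads (y axes, linear) over the sorted populations (x axis) at P0 and 4 weeks; each point is 1 library and the bar is the median. Cldn5 is highest in CD31+ cells (medians 2394 and 1252), Arvcf peaks in Ly51+gp38- cells (157.6 and 146.3), P2rx6 in cTEC (17.5 at P0), and Prodh, Aifm3 and Tango2 in medullary cells (48.2, 9.43 and 113.2 in mTEChi).

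The genotype comparison asked whether members moved in HET thymi at birth. HET libraries were shallower, with medians of 2551, 2391 and 2506 UMIs per cell against 2577, 3631 and 4686 in WT, and their part in the values below was not tested. Markers moved with genotype as well. The epithelial markers Epcam, Psmb11, Foxn1, Krt5 and Krt8 summed to 243 to 480 CPM in HET fibroblasts against 176 to 239 in WT, and to 311 to 510 in HET mural cells against 188 to 261. The classes' own markers were lower without overlap, at 6030 to 8375 CPM in HET fibroblasts against 8529 to 11851 and at 3538 to 4412 in HET mural cells against 4454 to 6026, and the part of these shifts in the genotype differences was not tested.

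Tbx1 had 0, 0 and 8 UMIs in the HET libraries and 13, 6 and 19 in WT. The HET libraries without a UMI allow a level of up to 0.603 and 0.195 CPM over all cells (3 counts), and the third stood at 0.872 CPM, inside the WT values of 1.79, 0.441 and 0.605. At this depth a change of Tbx1 could not be tested in any class, and pooled counts by class are given with their counting error only. In fibroblasts 1 HET against 17 WT UMIs, 12 of them from 1 WT library, gave a WT to HET ratio of 7.59 (exact 95% interval 1.19 to 317). The ratio was 3.45 (0.386 to 163.2) in endothelium, with 1 against 5, and 2.97 (0.614 to 28.2) in TEC, with 2 against 9, and mural cells held 3 UMIs in each genotype.

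Crkl was not detectably lower in HET cells. In fibroblasts it stood at 31.5, 23.5 and 24.9 CPM in HET and 23.2, 26.3 and 18 in WT (log2 0.19, 95% interval −0.28 to 0.66; adjusted p = 0.803, edgeR quasi-likelihood test, n = 3 against 3). The differences were −0.02 (−0.67 to 0.64) in endothelium, 0.28 (−0.24 to 0.79) in mural cells and 0.18 (−0.29 to 0.65) in TEC, and the groups overlapped in all 4 classes. Each interval lies above −1 on the log2 scale. The UMI tags come from the 3′ ends of transcripts and the deleted exons are not given in the sources used here, so these counts do not by themselves check the genotype of either gene.

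No member passed the threshold in any class. Of 23 members tested in fibroblasts, 18 in endothelium, 23 in mural cells and 27 in TEC, 0 were called by edgeR or DESeq2. In that order 3, 2, 1 and 3 members had an unadjusted p under 0.05 (edgeR). Over all genes 1007 of 11897, 273 of 7957, 643 of 10671 and 851 of 13718 had one. Tbx1, Gnb1l, Sept5, Gp1bb, Rtn4r, Serpind1 and Aifm3 were too low to be tested anywhere. The backgrounds at the adjusted threshold were 0%, 0.0126%, 0.112% and 0% of all genes. The median log2 difference (HET minus WT) over the members was 0.03, 0.00, 0.05 and 0.02 in the 4 classes, against 0.01, 0.00, 0.01 and 0.03 over all genes. Within 17 subtypes with enough cells 0 of 230 member tests were called by edgeR and 0 by DESeq2. An unadjusted p under 0.05 was held by 15 of the 230 (edgeR). Over all genes it was held by 217 of 7190 in intertypical TEC (ItTEC) to 744 of 5572 in PrTEC. With the replicate number as a block 1 member test was called, Cldn5 in Pr. Over all genes the subtypes gave 45 calls: 0.0148% of genes in EnC, 0.0308% in VSM, 0.0317% in CapFb2b, 0.0411% in Pr, 0.0469% in CapFb1b, 0.0548% in MedFb2a, 0.08% in Pc, 0.118% in CapFb4, 0.148% in MmTEC, 0.162% in PrTEC and 0% in the other 7.

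**Figure D5:**
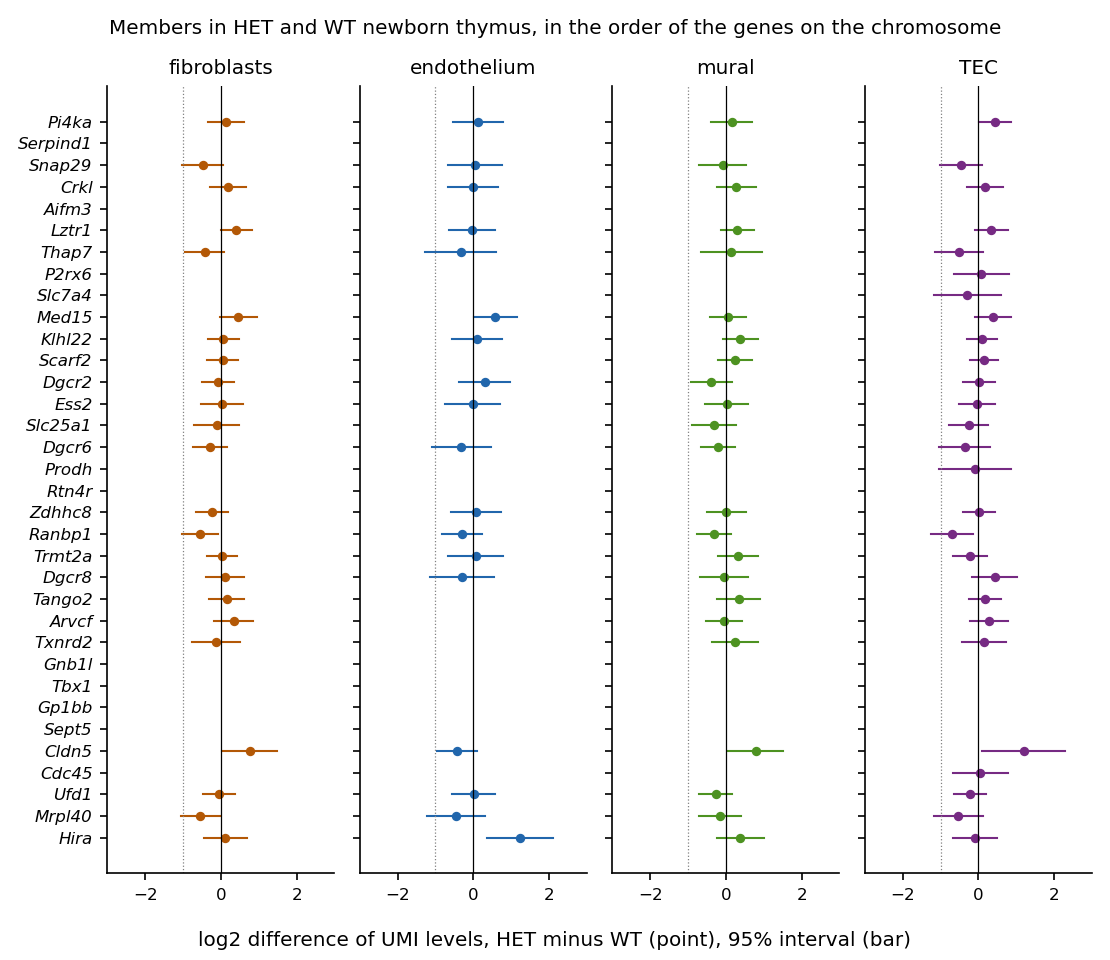
Log2 difference of UMI levels, HET minus WT (x axis), for each member tested (y axis, in the order of the genes on the chromosome) in fibroblasts, endothelium, mural cells and TEC; points are edgeR estimates from 3 against 3 libraries, bars are 95% intervals, and the dotted line stands at −1. Crkl lies between −0.02 and 0.28 in the 4 classes, and Ranbp1 lies below 0 in all 4.

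Few members separated the genotypes. In TEC 3 of 27 members had every HET library above every WT library (background 4.85%) and 2 had every HET library below (6.1%); the numbers were 1 and 1 of 23 in fibroblasts (6.81% and 5.49%), 1 and 1 of 18 in endothelium (3.68% and 3.95%) and 2 and 1 of 23 in mural cells (5.69% and 4.38%). Those in TEC were Lztr1, Pi4ka and Scarf2 above and Ranbp1 and Snap29 below.

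Ranbp1 was lower in HET by the fitted value in each class. In TEC it stood at 105, 121.7 and 86.3 CPM in HET and 135.9, 162.9 and 196 in WT (log2 −0.70, 95% interval −1.25 to −0.14, adjusted p = 0.689, edgeR, n = 3 against 3), and in fibroblasts at 129, 133.7 and 112.5 against 141, 176 and 212 (−0.55, −1.02 to −0.09, adjusted p = 0.526). The groups did not overlap in these classes and overlapped in endothelium (−0.29) and mural cells (−0.32). In all 17 subtypes its difference was negative (−1.07 to −0.10), but subtypes of a library share that library and its depth. The WT library with the highest Ranbp1 in all 4 classes was also the one with most UMIs per cell; the part of depth was not tested.

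Mrpl40 (lower in 13 of 13 subtypes), Med15 (higher in 14 of 15) and Lztr1 (higher in 13 of 14) had similarly even signs, and none was called. The subtypes are parts of the same libraries, and these members were picked for their signs. The share of all genes with such even signs was not counted. Mrpl40 in fibroblasts was 18.2, 29.1 and 24.5 CPM in HET and 28.8, 31.2 and 42.3 in WT (log2 −0.54, adjusted p = 0.574, edgeR). Lztr1 was 52.3, 43.6 and 60.3 against 43, 37.5 and 34 (0.40, adjusted p = 0.595), with all HET libraries above all WT ones.

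Hira in endothelium was at 26.2, 20.3 and 21.4 CPM in HET and 9.73, 13.4 and 7.14 in WT (log2 1.23, 95% interval 0.35 to 2.11). It did not overlap, had an unadjusted p of 0.00806 and did not pass (adjusted p = 0.999, edgeR, n = 3 against 3). In fibroblasts, mural cells and TEC the groups of Hira overlapped. The cycling markers summed to 206 to 237 CPM in HET endothelium and 101.2 to 172.01 in WT endothelium, also without overlap, and their part in the endothelial values of Hira and Cldn5 was not tested.

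Cldn5 was 819, 937 and 638 CPM in HET endothelium and 1047, 982 and 1166 in WT, again without overlap and without a call (−0.43, 95% interval −0.96 to 0.10, adjusted p = 0.999, edgeR, n = 3 against 3). Outside endothelium it went the other way: 12.6, 52.5 and 26.7 CPM in HET TEC against 17.4, 6.97 and 16.9 in WT (1.19, adjusted p = 0.689). The 4 other endothelial markers summed to 45.4 to 123.9 CPM in HET TEC and 29.3 to 57.2 in WT TEC, moving with it, and their part in the result was not tested. In cells labelled Pr the Cldn5 difference was 1.77 ± 0.42 (adjusted p = 0.082, edgeR). With the replicate number as a block it was 1.94 and passed (adjusted p = 0.0267, edgeR). These numbers are not known to pair HET and WT libraries, so the block does not stand for litters.

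The partner lists of the members held no called gene in any class of the genotype comparison, where 0% to 0.112% of all genes were called. Gp1bb, a subunit of the platelet receptor for von Willebrand factor, had its highest bulk median in gp38+CD26+ cells at 4 weeks (0, 1.56 and 3.98 CPM) and reached at most 0.603 CPM as a mean in any NETS subtype. Of its 2087 bp of exon, 1902 bp are shared with Sept5 on the same strand. Reads there cannot be divided between the genes, so these counts do not settle the level of Gp1bb.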

How the data were processed

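Single cells were captured in droplets, and sorted populations were sequenced in bulk from low input. The authors deposited UMI counts per gene and cell (Cell Ranger 3.1.0, mm10), with their cell labels, and gene read counts per bulk library (STAR 2.5.3a and HTSeq, per the submitters' processing notes); all are raw counts, and the strand setting of the counting is not given in the sources used here. The study's methods keep singlets with few mitochondrial reads and more than a set number of genes; the lowest number of genes per cell in the newborn files was 876 to 901.

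Here UMIs were summed per library and class, groups of at least 20 cells in a library were tested, and subtype means needed 5 cells. Tests were edgeR 4.0.16 quasi-likelihood fits (limma 3.58.1, R 4.3.3) on TMM-scaled counts after filterByExpr, with Benjamini-Hochberg adjustment over all genes and a threshold of 0.05; DESeq2 1.42.0 was an alternative. Age fits let the replicated ages set the spread for the 2 ages that had a single library. RPKM used GENCODE M21 exon lengths. The bulk library under 1000000 gene counts was left out, and the others held 7.81% to 16.6% of reads in no gene, which stayed out of library sizes. Intervals and limits from 3 counts cover counting error only.

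The members were taken by their place in the genome, but this region and the partner lists were picked with earlier results of these data known. The text names Tbx1 and Crkl, up to 10 called members per comparison by size of difference, and, in some comparisons, Cldn5, Cdc45, Ranbp1, Gp1bb and Hira where they did not pass; further called members and those shown for non-overlap, even sign or level were chosen after their values were seen. Partner lists are named by at most 4 called genes. The scripts were tested on simulated data. Libraries shared at most 14 cell barcodes per pair (at most 0.275% of the smaller). Overlapping exons also join Cdc45 with Ufd1, Dgcr8 with Trmt2a, P2rx6 with Slc7a4, Ranbp1 with Trmt2a, and Pi4ka with Snap29, on opposite strands.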

Additional observations from a re-analysis of the deposited data

Results flagged for a closer look

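Of 58 sets of 6 or 5 bulk libraries whose values are given for a member, 10 held 1 library whose distance from the others passed Dixon's 95% limit, where chance gives about 1 in 20. Slc7a4 stood apart 3 times: at 49.7 CPM in P0 cTEC replicate 6, at 133.96 CPM in 4-week mTEC replicate 3 and at 121.9 CPM in mTEClo replicate 2. Rtn4r stood apart at 7.50 CPM in P0 mTEC replicate 1 and at 21.1 CPM in 4-week mTEC replicate 3. Arvcf reached 18.5 CPM in 4-week CD31+ replicate 1, and Tbx1 14.4 CPM in 4-week mTEC replicate 2. Serpind1 reached 13.6 CPM in P0 mTEC replicate 6, and Dgcr2 67.3 CPM in 4-week Ly51+gp38- replicate 4. Sept5 was low, at 13.6 CPM, in 4-week gp38+CD26+ replicate 1.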

How the results depend on the processing

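Direction was kept except in 24 values, 15 of members called over the ages and 9 of uncalled members. Called members in fibroblasts were Lztr1 (−0.0272; 0.0175 without the E13.5 library, −0.0809 to 0.0175 with 1 library left out, 0.248 in CapFb1a alone), Slc25a1 (−0.0484; 0.0426 with proliferating cells added, −0.161 to 0.0552 with 1 left out), Slc7a4 (0.0261; −0.723 to 0.767 with 1 left out) and Txnrd2 (0.486; −0.0018 in CapFb1a alone). In endothelium Dgcr8 (−0.00152) was 0.0165 with DESeq2, 0.0171 with its size factors, 0.0807 with the replicate block, 0.125 in EnC alone and −0.0493 to 0.0547 with 1 left out. The plain CPM ratio also had the other sign for Slc7a4 and Dgcr8. Uncalled values were Crkl between genotypes in endothelium (0.029 without HET replicate 3 and 0.022 without WT replicate 1, against −0.02; −0.111 to 0.029 with 1 library left out), Crkl over the ages in fibroblasts (−0.00797 with proliferating cells added, −0.0118 without the E13.5 library and −0.129 in CapFb1a alone, against 0.08; −0.0118 to 0.173 with 1 library left out), Tbx1 between TEC and NETS at P0 (0.0385 with DESeq2 and 1.67 with the label prefix as a term, against −0.20, on cTEC libraries with no read), and Crkl between mTEChi and mTEClo (−0.00147 without the low-count filter and −0.0119 with the prefix, against 0.01). Of the counts of called members, 117 values stayed within 1.5 times the reported count and 11 moved; of single members, 74 values kept their direction but no longer passed. Restricted to cells labelled CapFb1a or to CapFb2b, an alternative chosen after seeing the data, the age comparison in fibroblasts called 15 members in each, against 25. With DESeq2 it called 7 members in endothelium (11 by edgeR), 4 in gp38+CD26+ cells between ages (2 by edgeR) and 7 between mTEChi and mTEClo (3 by edgeR). Without the low-count filter, 0 members were called between ages in CD31+ cells (2 with it), 0 in Ly51+gp38- cells (1 with it) and 3 in gp38+CD26- cells (5 with it). The label prefix as a term left 1 call in CD31+ cells, and keeping the shallow library left 1 in gp38+CD26+ cells. Leaving out 1 library at a time gave 21 to 27 called members in fibroblasts and 8 to 13 in endothelium over the ages, 2 in gp38+CD26+ cells, and 0 in each class of the genotype comparison. With the replicate number as a block the ages called 24 and 11 members and the genotype classes 0; over the subtypes 1 was called (0 without the block), Cldn5 in Pr (1.94, adjusted p = 0.0267, edgeR). Deviations from the group means correlated at −0.435 to 0.144 between same-numbered HET and WT libraries over the 4 classes and at −0.504 to 0.511 between differently numbered ones (0.386 to 0.511 for HET 2 with WT 3, 0.205 to 0.405 for HET 3 with WT 1). Which HET and WT libraries are of 1 litter is not given in the sources used here, and the 6 were fitted as unpaired. In the newborn libraries 7 members were too low to be tested in any class. The parts of depth, of low expression and, for Sept5 and Gp1bb, of their shared exons were not told apart. Of calls named above, Serpind1 (DESeq2, adjusted p = 0.222) and Ufd1 (no filter, adjusted p = 0.105) between CD31+ cells and other NETS at P0, and Ranbp1 and Thap7 between them at 4 weeks (shallow library kept, adjusted p = 0.372 and 0.193), ended; the causes were not tested.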
